A study of Mus musculus with 6 samples.

Results

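The miR-29 family was measured in small RNA of cultured mouse oligodendrocytes, the glia that make myelin, and in the extracellular vesicle (EV) pellets collected from their medium. The members were taken by name: miR-29a-3p, miR-29b-3p, miR-29c-3p, miR-29a-5p and miR-29c-5p, 5 of the 1906 mature miRNAs in each count table, and all 5 were found. There were 3 EV libraries and 3 cell libraries. The oligodendrocytes of both groups were derived from embryonic day 14 mice of strain C57BL/6N and grown in Sato medium containing 1% horse serum. After a wash, vesicles were collected over 24 h in serum-free Sato with B27, a supplement for neural cultures, at 5 to 6 days in vitro, while the cells were taken at 6 days. The pellet was the product of a final spin at 100000 g for 2 h, which also brings down particles other than vesicles. Primary cultures can hold other cells, nothing in the labels says that the replicates came from separate cultures, and the p-values refer to the variation among these libraries, part or all of which may be technical. No library of medium alone is used here. By its title, the study concerns miRNAs that medium supplements bring into EV preparations.

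miRNAs of the miR-29 family pair through their seed, bases 2 to 8 counted from the 5′ end, with sites in messenger RNAs, which lowers the output of those messages. Their best-known targets are genes of the extracellular matrix, such as collagens, elastin and fibrillin, and the de novo DNA methyltransferases. In brain the family is abundant in astrocytes, rises as the tissue matures, and in mature neurons restrains pro-apoptotic genes. A hairpin gives 2 arms. The 3p arm is the guide strand of this family, loaded into Argonaute, and the 5p arm is mostly discarded as the passenger.

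The 3 guide strands are shown first because they share one seed and differ only outside it, so any difference between them falls on bases outside the seed. Capitals mark the seed, and the sequences are those of RefSeq for build GRCm38.p6, in which all 5 members were matched.
miR-29a-3p: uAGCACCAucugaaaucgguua
miR-29c-3p: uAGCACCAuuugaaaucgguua
miR-29b-3p: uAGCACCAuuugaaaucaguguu
No other counted miRNA with a RefSeq sequence has the seed AGCACCA. Counted from the 5′ end, miR-29c-3p differs from miR-29a-3p by 1 base of 22, C10U. miR-29b-3p matches miR-29c-3p up to the substitution G18A, then carries U21G and A22U and is 1 base longer. The 5p arms are shown to make plain that each has a seed of its own, which is neither that of the guides nor that of the other 5p arm.
miR-29a-5p: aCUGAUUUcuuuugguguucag
miR-29c-5p: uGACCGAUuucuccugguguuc

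The family comes from 2 pairs of hairpins, and each pair holds 1 copy of miR-29b. On chromosome 6, minus strand, Mir29a lies at chr6:31062660-31062747 and Mir29b-1 at chr6:31063023-31063093, with 275 bases between them. On chromosome 1, plus strand, Mir29b-2 lies at chr1:195037040-195037120 and Mir29c at chr1:195037547-195037634, with 426 bases between them. These are GRCm38 positions from the sequence table, while the authors mapped to the older NCBIM37, and the deposited counts carry no positions. In GENCODE M21, Mir29b-2 and Mir29c lie inside an exon of the noncoding host A330023F24Rik on the same strand and inside an exon of Cd46 on the opposite strand. Mir29a overlaps no other annotated gene, and Mir29b-1 shares 2 bases with the noncoding Gm27019. The hairpin of Mir29c shows how the arms lie, with the 5p arm (positions 16 to 37) and the 3p arm (54 to 75) in capitals.
Mir29c: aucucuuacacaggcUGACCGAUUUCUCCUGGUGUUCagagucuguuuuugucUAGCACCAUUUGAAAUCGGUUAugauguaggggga
The 3p arms of Mir29b-1 and Mir29b-2 are the same 23 bases, so a miR-29b-3p read has 2 possible origins. How the authors treated reads with several origins is not given in the sources used here.

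Values are counts of reads per mature miRNA, given as CPM, which scales each count by its library's total. Total counts ran from 313766 to 689475 in EVs and from 126910 to 202358 in cells, so a single read was worth 1.45 to 3.19 CPM for EVs against 4.94 to 7.88 CPM for cells. EVs and cells were compared by edgeR's quasi-likelihood test with TMM scaling and Benjamini-Hochberg (BH) adjustment over the 336 miRNAs that passed its filter on low counts (threshold 0.05). All 5 listed oligodendrocyte markers, such as miR-338-5p and miR-219a-2-3p, were present in the cells, where they summed to between 33961 and 43435 CPM. The 5 neuronal ones summed to 42282 to 57552 CPM in the same libraries.

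The 2 guides that differ by a single base, miR-29a-3p and miR-29c-3p, rose in EVs by nearly the same factor, while miR-29b-3p did not. miR-29a-3p rose 1.81-fold (95% interval 1.32 to 2.49) and miR-29c-3p 1.76-fold (1.24 to 2.51). miR-29b-3p was at 0.667 of its cell level (0.433 to 1.03), which did not pass the test. Of the 4 members tested, 2 were called higher and 0 lower, and across all 336 miRNAs 57.4% were called, 28.6% higher and 28.9% lower. The median log2 fold change was 0.40 over the 4 tested members and 0.06 over all tested miRNAs. In bulk samples such as the cell libraries, fewer cells of a type and less RNA per cell cannot be told apart.

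**Figure D1:**
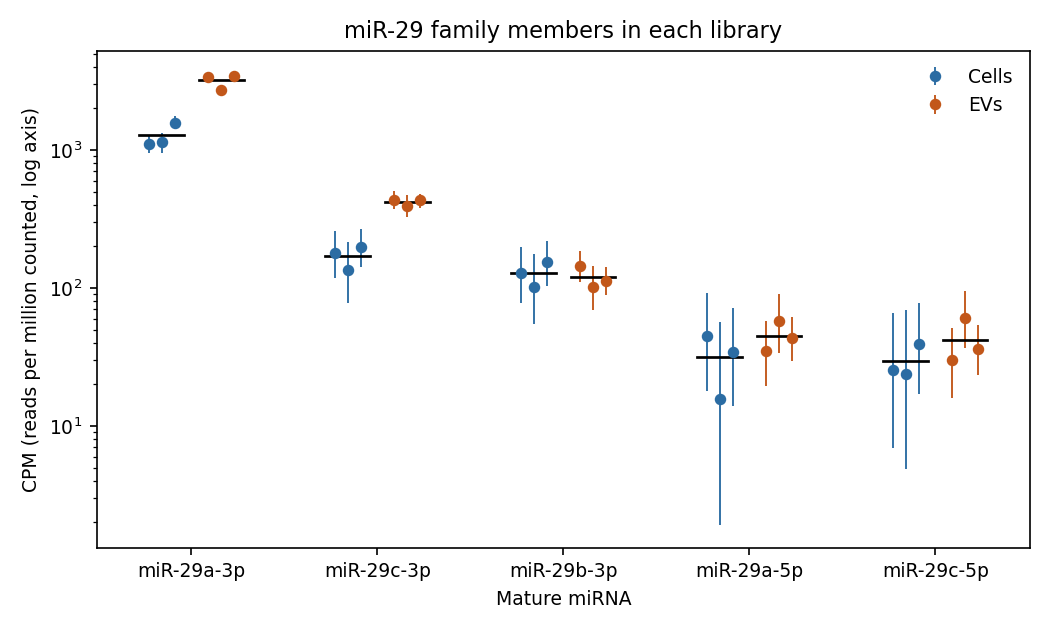
CPM of the 5 miR-29 members (log axis) in each of 3 cell and 3 EV libraries. Points are libraries with exact 95% binomial intervals of counting error, and black lines are group means. The EV points of miR-29a-3p (2731 to 3453 CPM) and miR-29c-3p (395 to 436 CPM) lie above all cell points, and those of the other 3 members overlap the cells.

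miR-29a-3p is the dominant member in both groups. It stood at 3392, 2731 and 3453 CPM in EVs replicates 1 to 3 and at 1108, 1135 and 1581 CPM in Cells replicates 1 to 3. Every EV library exceeded every cell library, with Cells replicate 3 the highest of the cells and EVs replicate 2 the lowest of the EVs. These values rest on 857 to 2381 reads per EV library and 144 to 320 per cell library. Its rank by count lay between 55 and 64 of the 1906 miRNAs in EVs and between 72 and 83 in cells. The log2 fold change was 0.86 (SE 0.21, edgeR BH-adjusted p = 0.00615). That call held in all 16 alternatives run, at 0.74 to 1.32, with adjusted p-values up to 0.0287.

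miR-29c-3p, transcribed from the other locus, followed the same course at a lower level. It is 1 base from miR-29a-3p, and how mapping kept reads of the 2 apart is not given in the sources used here. It stood at 436, 395 and 431 CPM in EVs and at 179, 134 and 198 CPM in cells. The groups did not overlap, and the EV libraries lay close together. The log2 fold change was 0.82 (SE 0.23, edgeR BH-adjusted p = 0.0128). Cells replicate 2 was its lowest library, at 17 reads. Without it the log2 fold change was 0.65, still a rise, and the call ended (adjusted p = 0.0535). Non-overlapping CPM with EVs above was seen for 2 of the 5 members and for 47.3% of all tested miRNAs (67.6% in either direction).

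miR-29b-3p, the guide made from both loci, stood at 144, 102 and 113 CPM in EVs and at 128, 102 and 153 CPM in cells. The groups overlapped fully in range, with EVs replicate 1 among the higher values and Cells replicate 2 level with EVs replicate 2. The counts were small, 32 to 78 reads per EV library and 13 to 31 per cell library. Its log2 fold change of -0.59 (SE 0.28, 95% interval -1.21 to 0.04, edgeR BH-adjusted p = 0.0968) was not called in any of the 16 alternatives, which ran from -0.77 to -0.11.

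The size of each log2 fold change depends on the scaling. With library size only, miR-29a-3p stood at 1.32, miR-29c-3p at 1.29 and miR-29b-3p at -0.11, and the median of all tested miRNAs moved from 0.06 to 0.54. Relative to the median with TMM, miR-29a-3p was at 0.80 and miR-29b-3p at -0.64. A scaling factor moves all miRNAs of a library alike, so it cannot change the distance between members.

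**Figure D2:**
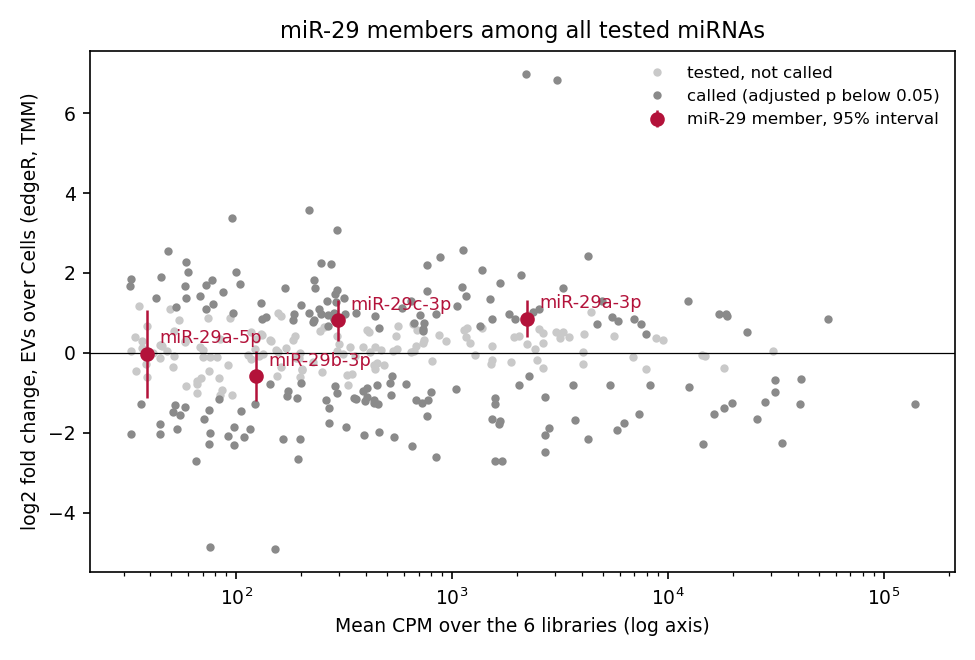
log2 fold change of EVs over cells (edgeR, TMM) against mean CPM over the 6 libraries (log axis) for the 336 tested miRNAs. Grey points are all tested miRNAs, darker where called, and red points are the 4 tested miR-29 members with 95% intervals. miR-29a-3p (0.86) and miR-29c-3p (0.82) lie above 0 but well inside the spread of all miRNAs.

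The members' fold changes were moderate among all miRNAs. miR-29a-3p took place 80 and miR-29c-3p place 88 from the top of the 336, and miR-29b-3p place 228. miR-29a-5p, which was not called, took place 183.

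Ratios of reads within a library, which need no scaling, separated miR-29b-3p from its relatives. For each read of miR-29c-3p there were 7.78, 6.91 and 8.02 reads of miR-29a-3p in EVs and 6.18, 8.47 and 8.0 in cells, so the groups overlapped. For each read of miR-29b-3p there were 23.6, 26.8 and 30.5 reads of miR-29a-3p in EVs and 8.65, 11.1 and 10.3 in cells. The lowest EV value was above the highest cell value. For miR-29c-3p against miR-29b-3p the ratios were 3.03, 3.88 and 3.81 in EVs and 1.4, 1.31 and 1.29 in cells, again without overlap.

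**Figure D3:**
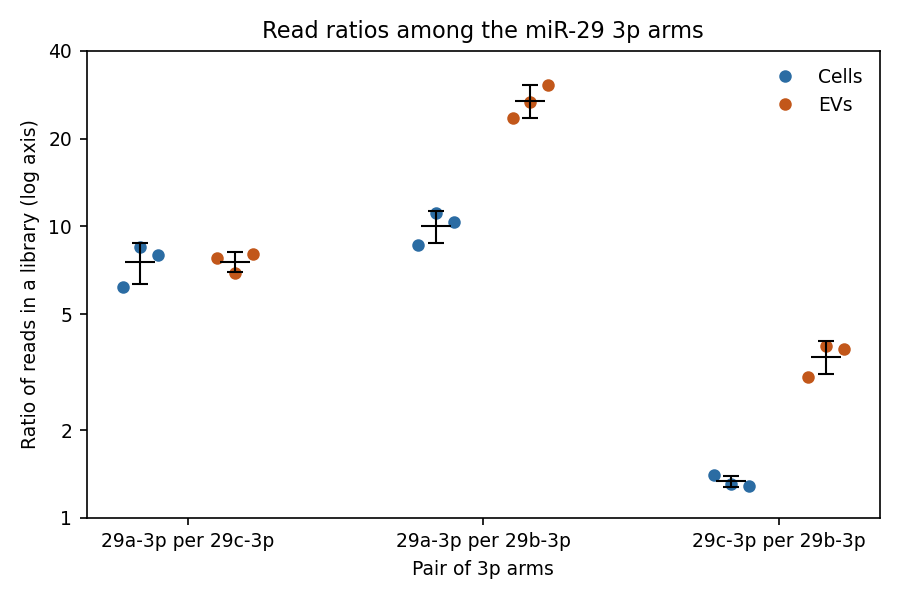
Ratios of read counts between pairs of miR-29 guides (log axis) in 3 cell and 3 EV libraries. Points are libraries, and black marks are group means with SD. The ratio of miR-29a-3p to miR-29c-3p overlaps between groups (7.57 ± 0.58 in EVs and 7.55 ± 1.21 in cells), and both ratios to miR-29b-3p are higher in all EV libraries.

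The difference between members was tested with limma on log2 ratios to miR-29a-3p, with BH adjustment over the 335 other miRNAs. miR-29b-3p fell by 1.45 relative to miR-29a-3p on the log2 scale (SE 0.27, limma BH-adjusted p = 0.00114), and the value lay between -1.54 and -1.35 over 10 alternatives, called in each. Taken against miR-29c-3p in place of miR-29a-3p, it was -1.41 (limma BH-adjusted p = 0.00152). miR-29c-3p differed from miR-29a-3p by -0.03 (95% interval -0.63 to 0.56, limma BH-adjusted p = 0.923). A difference inside that interval could have been missed, while the -1.45 of miR-29b-3p lay outside it. Falling behind miR-29a-3p was common, since 52.8% of the 335 miRNAs were called relative to it, 47.5% lower and 5.37% higher. In this respect miR-29b-3p was 1 of many.

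**Figure D4:**
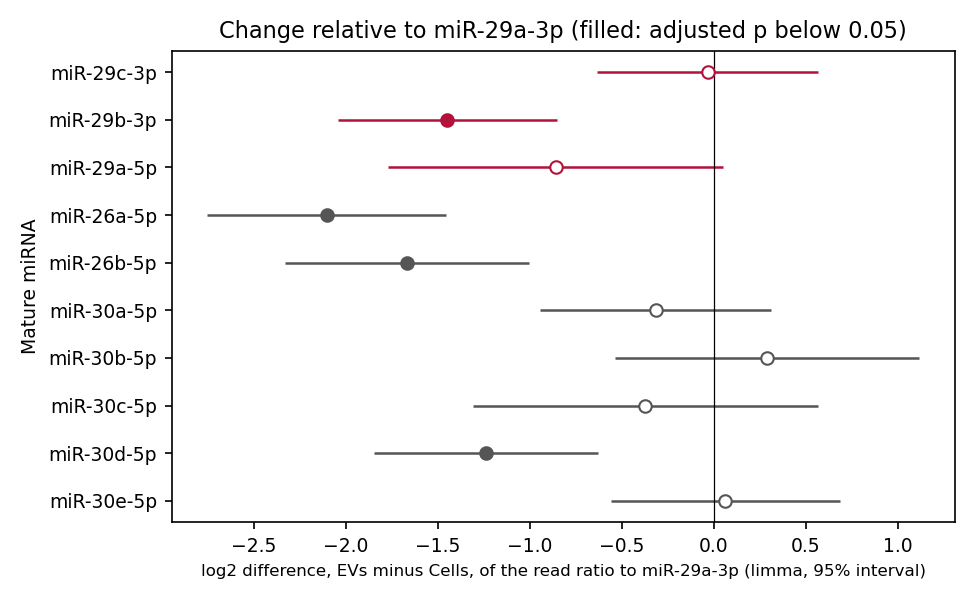
log2 difference, EVs minus cells, of the read ratio to miR-29a-3p (limma, 95% intervals) for 3 other miR-29 members (red) and the miR-26 and miR-30 families (grey). Filled points have an adjusted p below 0.05. miR-29c-3p sits near 0 at -0.03, and miR-29b-3p at -1.45.

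As a whole, the 3 guides took 0.373% ± 0.0437 of the EV counts and 0.157% ± 0.0312 of the cell counts (SD, n = 3 each). Each EV library, at 0.323% to 0.400%, exceeded each cell library, at 0.137% to 0.193%, and the exact 95% binomial intervals of the nearest pair were 0.303% to 0.343% and 0.175% to 0.213%. miR-29a-3p made up 85.5% ± 0.898 of the guide reads in EVs and 81.0% ± 2.37 in cells. The share of miR-29c-3p was 11.3% ± 0.793 and 10.9% ± 1.56, and that of miR-29b-3p 3.20% ± 0.398 and 8.15% ± 0.812. Since miR-29a-3p supplies most of the sum, the sum carries little beyond that member.

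The passenger arms were rare. miR-29a-5p stood at 34.8, 57.4 and 43.5 CPM in EVs and at 44.8, 15.8 and 34.6 CPM in cells. The groups overlapped, and Cells replicate 2, the lowest, held 2 reads. Its log2 fold change was -0.02 (SE 0.49, 95% interval -1.12 to 1.07, edgeR BH-adjusted p = 0.972), a width at which a change of the size seen for its guide was not detectable, and its sign turned with library size only (0.45). miR-29c-5p stood at 30.2, 60.6 and 36.3 CPM in EVs and at 25.6, 23.6 and 39.5 CPM in cells, also overlapping. With 3 to 8 reads per cell library it did not pass the filter on low counts. Without that filter its log2 fold change was 0.12 (SE 0.55, edgeR BH-adjusted p = 0.876). For both 5p arms EVs replicate 2 was the highest library.

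The remaining arms of the hairpins, miR-29b-1-5p and miR-29b-2-5p, were near the detection limit. miR-29b-1-5p had 2 reads over the EV libraries and 3 over the cell libraries, and miR-29b-2-5p 4 and 2. A count of 0 allows up to 3 reads. That limit was 4.35 to 9.56 CPM for EVs but 14.8 to 23.6 CPM for cells, so no difference could be read for either.

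The balance of arms was compared with limma on log2 ratios of 5p to 3p reads over 187 hairpins, of which 35.8% were called in either direction. That share includes hairpins with 0 reads of the 5p arm in both groups, such as miR-874 and miR-381. Their differences rest on the 3p counts and the 0.5 added, so the share is not a clean measure of arm changes. miR-29a gave 1.03, 2.10 and 1.26 reads of the 5p arm per 100 of the 3p arm in EVs and 4.05, 1.39 and 2.19 in cells. The values overlapped, and the log2 difference was -0.86 (SE 0.50, limma BH-adjusted p = 0.214). miR-29c gave 6.91, 15.3 and 8.42 per 100 in EVs and 14.3, 17.6 and 20 in cells, a difference of -0.93 (SE 0.45, limma BH-adjusted p = 0.144). EVs replicate 2, at 15.3, lay inside the range of the cells. For miR-29b, with the 5p reads of both hairpins summed, the difference was -1.24 (SE 0.56, limma BH-adjusted p = 0.12) on 6 and 5 reads of the 5p arm, and it was called only without Cells replicate 3 (-1.79, adjusted p = 0.0322). All 3 differences were below 0, and in the full set of libraries none passed the test.

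**Figure D5:**
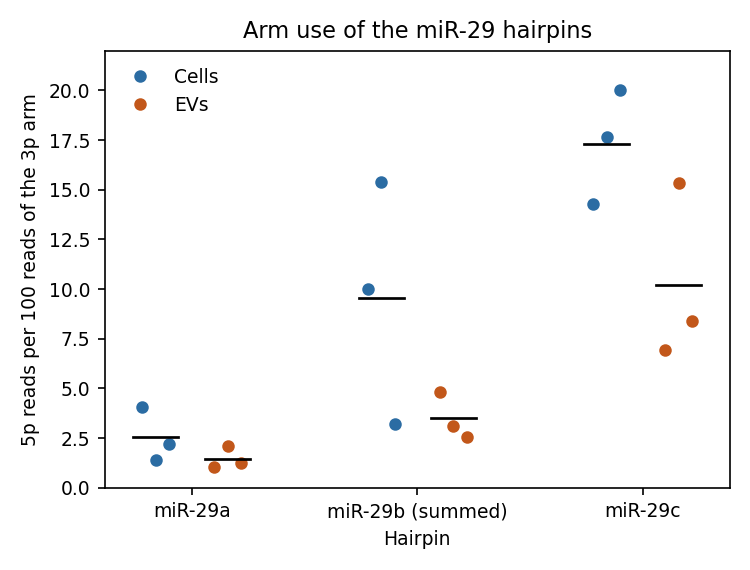
Reads of the 5p arm per 100 reads of the 3p arm for the 3 miR-29 names in each cell and EV library. Points are libraries, black lines are group means, and the 5p arms of both miR-29b hairpins are summed. miR-29c keeps the most 5p reads, 10.2 per 100 in EVs and 17.3 in cells on average, and EVs and cells overlap in each of the 3.

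In order of level, miR-29a-3p was followed by miR-29c-3p, miR-29b-3p and then the 5p arms in both groups. In EVs miR-29c-3p (395 to 436 CPM) was clear of miR-29b-3p (102 to 144 CPM), but in cells the ranges of these neighbours overlapped (134 to 198 and 102 to 153 CPM). miR-29a-5p and miR-29c-5p overlapped in both groups. Adapter ligation favours some sequences over others and miR-29b-3p reads have 2 origins, so levels of different members are less certain than the change of 1 member.

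The miRNAs whose pattern over the 6 libraries lay nearest to that of miR-29a-3p came from several families. Likeness was the root mean square difference of log2 CPM (TMM), each miRNA centred on its own mean, among the 253 miRNAs outside the family that averaged 100 CPM or more. miR-138-5p (0.12), miR-93-3p (0.16), miR-362-3p (0.16), miR-434-5p (0.16) and miR-137-3p (0.18) came closest. For miR-29c-3p the difference was 0.15, and 1 of the 253 was nearer. For miR-29b-3p it was 0.72, and 151 were nearer. This measure mostly reflects the contrast of the groups and is given as a description.

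The miR-26 and miR-30 families, with known roles in glia or in matrix control, were set beside miR-29a-3p. miR-26, which like miR-29 is abundant in astrocytes, moved the other way, with a log2 fold change of -1.23 for miR-26a-5p and -0.80 for miR-26b-5p, the latter not called with library size only (-0.34). Relative to miR-29a-3p they fell by 2.10 (SE 0.29, limma BH-adjusted p = 0.000290) and 1.67 (SE 0.29, limma BH-adjusted p = 0.000942). Of the 5 guide strands of miR-30, a family that also restrains matrix genes, only miR-30d-5p differed from miR-29a-3p by that test, at -1.24 (SE 0.27, limma BH-adjusted p = 0.00341). miR-30e-5p, at 0.06, had an interval of -0.56 to 0.68.

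Other miRNAs known to act on matrix and fibrosis went in both directions. Of 10 that restrain it, 8 were tested, 4 rose and 2 fell, where 28.6% of all tested miRNAs rose and 28.9% fell. The number that fell was 3 with DESeq2, RLE or upper-quartile factors and without miR-9-5p, settings in which miR-30d-5p was called lower (-0.48 to -0.43), and also without Cells replicate 3. The median log2 fold change of the 8 was 0.45, against 0.06 over all tested miRNAs. miR-30a-5p (0.53) and miR-30e-5p (0.93) were among those that rose, and miR-26a-5p fell. Leaving out EVs replicate 1 (0.44) ended the call of miR-30a-5p, as did leaving out Cells replicate 2 (0.41) or 3 (0.48). Of 4 that promote fibrosis, miR-21a-5p (-1.65) and miR-155-5p (-2.66) fell, and the other two did not pass the filter on low counts. Those had more reads in EVs, 26 against 1 for miR-199a-5p and 29 against 1 for miR-214-3p, and neither was called when tested with no filter or with the 10 CPM filter. Of 3 miRNAs known, like miR-29, to target DNA methyltransferases, miR-148a-3p rose by 2.41, while miR-148b-3p (-0.37) and miR-152-3p (0.55) did not pass the test. With library size only miR-152-3p was called as well (1.04).

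Markers of other cell types moved between EVs and cells alongside the miR-29 guides, as did 57.4% of all tested miRNAs, 28.6% higher and 28.9% lower. These calls use TMM, while the sums given with them are CPM scaled by library total only, so the sizes are not comparable. Of the 8 astrocyte markers 2 rose and 5 fell (3 with library size only). The 2 that rose were miR-143-3p and miR-145a-5p, which are counted again among the fibroblast and mural markers. Sums of the 8 ran from 38666 to 49587 CPM in the EVs against 72201 to 86520 CPM in cells. Of the 5 neuronal markers 4 rose and 0 fell, their sums being 102339 to 133979 CPM in the EVs against 42282 to 57552 CPM in the cells. The number that rose was 1 without EVs replicate 1 and 2 when EVs replicate 2 was left out, as when Cells replicate 2 or 3 was. Of the 5 fibroblast and mural markers, which include the astrocyte-listed miR-143-3p and miR-145a-5p, 3 were tested and rose, their sums being 2489 to 4830 CPM in EVs against 362 to 1044 CPM in cells. Of the 5 microglial and myeloid markers 0 rose and 4 fell, their sums being 612 to 1936 CPM in EVs against 1592 to 4566 CPM in cells. The number that fell was 1 with library size only or without Cells replicate 3, and 2 when libraries were thinned to equal depth or without Cells replicate 1. Of the 5 oligodendrocyte markers 2 rose and 3 fell, their EV sums being 33557 to 36111 CPM. With library size only 2 fell, since the call of miR-338-3p ended (-0.35). The number that rose was 1 with a replicate block, and also when EVs replicate 2 or any one of Cells replicates 2 and 3 was left out. No marker of these lists was at 0 in all cell libraries. The liver miRNA miR-122-5p and the red blood cell miRNA miR-451a, chosen after their values were seen, rose more than the guides. miR-122-5p stood at 6074 ± 2085 CPM in EVs against 38.9 ± 12.4 CPM in cells, and miR-451a at 4368 ± 1572 against 27.6 ± 23.9 CPM (SD, n = 3 each). Relative to miR-29a-3p they were higher in EVs by 5.84 and 6.03 on the log2 scale (limma BH-adjusted p = 3.06e-05 and 4.07e-05). What part any of these sources has in the rise of miR-29a-3p and miR-29c-3p was not tested.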

How the data were processed

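Small RNA of 15 to 200 nt from 3 EV and 3 cell samples was ligated to adapters with 4 random bases each, amplified over 14 PCR cycles and sequenced, per the labels' protocols. The authors deposited raw read counts per mature miRNA, 1 table per library. The submitters' processing notes name bcl2fastq 1.8.4, cutadapt 1.7.1, Bowtie 0.12.8, featureCounts 1.4.6-p4 and build NCBIM37. Not given in the sources used here are their settings, the rule for reads with several origins, the use of strand and any removal of PCR duplicates. The exact binomial intervals and the floors (3 reads) therefore cover counting error only.

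From the counts, EVs and cells were compared with edgeR 4.0.16 in R 4.3.3 (TMM, filterByExpr with a minimum count of 10, quasi-likelihood test, Benjamini-Hochberg adjustment over 336 miRNAs). Ratios between arms, and to miR-29a-3p, were compared with limma 3.58.1 on log2 counts plus 0.5, for arms where a hairpin had at least 10 counts in every library. The common biological coefficient of variation was 23.8%. Chi-square per degree of freedom between replicates was 7.73 to 37.5, so replicates differed by more than counting error. That does not tell separate cultures from repeated preparations of the same sample. Deviations from the group means were only weakly correlated in libraries of the same number (correlations 0.115, 0.103 and 0.254, against -0.140 to 0.020 for others). These correlations are the only source of the pairing. Deviations cancel out within each group, so positive values for some pairs push others down. The edgeR test and both limma tests were tried on simulated counts with known changes. The alternatives and the list, likeness and sequence steps were not. Alternatives were DESeq2 1.42.0, other scalings and filters, limma-voom, thinning, a replicate block and leaving out each library. Named miRNAs were the members, up to 4 of the most abundant of each list, the miR-26 and miR-30 families and the 5 nearest in pattern. The members and lists were chosen with earlier results of these data known.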

Additional observations from a re-analysis of the deposited data

How the results depend on the processing

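Over 16 alternatives the call of miR-29a-3p held, and that of miR-29b-3p relative to miR-29a-3p held over 10. With a replicate block no miR-29 call changed (0.87 for miR-29a-3p, 0.83 for miR-29c-3p, -0.59 for miR-29b-3p). Among the named miRNAs, the call of miR-219a-5p ended there (0.75). The log2 fold change of miR-29c-3p ran from 0.65 to 0.91 as each library was left out. miR-29a-5p changed sign with library size only (0.45), with no filter (0.13) and as libraries were left out (-0.32 to 0.33). With library size only, 148 miRNAs were called higher and 60 lower, against 96 and 97, and miR-30d-5p (0.11) and miR-148b-3p (0.094) changed sign. With no filter, which kept 1015 miRNAs against 336, 602 were lower relative to miR-29a-3p, against 159. For a miRNA with few or no reads, the 0.5 added to each count lowers the ratio in EVs, where miR-29a-3p had more reads. The 602 is therefore not read as a count of falls. With an arm minimum of 50 counts, which gave no value for miR-29b or miR-29c, 13 hairpins were higher and 27 lower in 5p share, against 24 and 43. Leaving out libraries gave 12 to 21 and 24 to 43, and -1.79 to -0.81 for miR-29b. It gave 2.23 to 2.68 for the ratio of guide shares, EVs over cells. Relative to miR-29a-3p it gave -0.12 to 0.10 for miR-29c-3p, -0.0036 to 0.69 for miR-30b-5p, -0.81 to 0.075 for miR-30c-5p and -0.081 to 0.15 for miR-30e-5p. For miR-449a-5p, not called, it gave -3.16 to 0.95. Where no construction of the alternative shows the cause, the cause was not tested. Depth limits the 5p arms, at 2 to 8 reads per cell library.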

Other observations

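The last 6 bases of miR-29b-3p, AGUGUU, are known from human cells as a motif that directs this miRNA to the nucleus, and they cover the 3 positions at which it departs from miR-29c-3p. The motif was chosen after the values were seen. It was searched on the mature strand only and at any position, and 12 of 1622 mature sequences (0.74%) held it, 2 of them at the end. Among the 297 tested miRNAs with a sequence, the holders at any position were miR-29b-3p and the myeloid miR-142a-3p. A holder by this search need not carry the motif at its 3′ end. The latter had a log2 fold change of -1.19 (edgeR BH-adjusted p = 0.0108), and its call ended with library size only (-0.73), after thinning (-0.86) and without Cells replicate 3 (-0.80). A match in letters is a description and shows nothing of localisation in these cells.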
